A study of Arabidopsis thaliana with 16 samples.

Results

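The transcripts of 10 suberin synthesis genes were followed in Arabidopsis thaliana roots. They are the rows of the expression matrix, 10 of 33560, whose gene codes belong to MYB41, KCS2, CYP86A1, CYP86B1, GPAT5, GPAT7, FAR1, FAR4, FAR5 and ASFT, a set named by function and not by measured values. The 16 root libraries came from 4 genotypes with 4 replicates each, all in the Col-0 ecotype, from seedlings grown for 5 days on MS plates in long days. The double mutant carries mctp3-2 together with mctp4-1, the mctp4-1 mutant is the line Salk_089046C, the mctp3-2 mutant is the line GABI_285E06, and WT is wild-type Col-0. MCTP3 and MCTP4 are membrane-anchored proteins found at plasmodesmata, which connect neighbouring plant cells. Whole roots were ground, so fewer cells of a type and less RNA per cell cannot be told apart in any value below. The labels do not say whether replicates were separate cultures, so the tests measure the spread between these libraries.

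Suberin is a polyester of fatty acids, glycerol and phenolics laid down as lamellae on the inside of the wall of older endodermal cells, where it limits the passage of water and solutes. Its aliphatic parts are made by elongating fatty acids, oxidising their ends or reducing them to alcohols, and joining them to glycerol and to ferulate. In roots, abscisic acid and several MYB factors are known to raise the genes of this pathway, and nutrient status changes how far up the root the lamellae reach.

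Values are FPKM, sequenced fragments corrected for how long a transcript is and how many fragments a library gave, so levels can be set against each other between genes. They summed to 887430 to 1016221 per library; the read depth behind them is unknown. MCTP4 (AT1G51570) was at 3.08 ± 0.166 FPKM in double, 4.33 ± 1.29 in mctp4-1, 28.6 ± 1.50 in mctp3-2 and 26.3 ± 3.42 in WT (SD, n = 4 each). MCTP3 (AT3G57880) was at 13.8 ± 0.847 FPKM in double, 6.68 ± 1.1 in mctp4-1, 13.8 ± 1.78 in mctp3-2 and 6.39 ± 0.236 in WT. Since MCTP3 transcript was higher where the label names mctp3-2 (limma log2 change from WT 1.00 ± 0.11 in double, adjusted p 0.000238), double and mctp3-2 stand for the libraries labelled so. The filter for the tests was at least 1 FPKM in at least 4 libraries. Of genes listed for the endodermis, the layer that makes root suberin, or for its Casparian strip, 13 of 13 passed it. Their summed level was 826 to 1099 FPKM in double, 859 to 1004 in mctp4-1, 795 to 922 in mctp3-2 and 827 to 1023 in WT. AT4G34600 alone averaged 201 FPKM over the 16 libraries, and in which cells each listed gene is expressed was not tested. Photosynthesis genes, markers of green tissue, summed to 131 to 503 FPKM over the 16 libraries, and 7 of 9 passed the filter in these libraries labelled root.

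Within the set, ASFT and CYP86A1 were the most abundant transcripts. Averaged over the 16 libraries, ASFT was at 116 FPKM, above 92.4% of the 19239 genes tested, and CYP86A1 at 84.4 FPKM. FAR5 at 50.4 and KCS2 at 43.3 FPKM followed, then GPAT5 at 21.7, CYP86B1 at 18.9 and FAR4 at 18.4. GPAT7 at 4.90, MYB41 at 4.72 and FAR1 at 4.45 FPKM were the weakest. Neighbours in this order, such as GPAT5, CYP86B1 and FAR4, overlap in their ranges over libraries. All 10 passed the filter. Of 14 relatives from the same enzyme families, 8 passed it. FAR7 was listed at 0 in every library and FAR8 averaged 0.0104 FPKM, although FAR8 (AT3G44560) lies next to FAR5 in a tandem row. In TAIR10.1 that row is FAR4 at chr3:16123426-16128030, FAR5 at chr3:16137576-16142270 and FAR8 at chr3:16151123-16154607, all on the plus strand, with gaps of 9545 and 8852 bases.

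The promoters below belong to the genes on which the results turn. GPAT5 and FAR5 are the members whose levels followed each other most closely over the 16 libraries with genotype means removed, CYP86A1 is the member with the lowest value in double relative to WT, and MYB41 is the regulator. Each is the 250 bases before the annotated start, read 5′ to 3′ on the gene's strand from the RefSeq TAIR10.1 genome. Capitals mark the letters ACGTG, the core of the abscisic acid response element, on either strand.
GPAT5, chr3:3595444-3595693, plus strand: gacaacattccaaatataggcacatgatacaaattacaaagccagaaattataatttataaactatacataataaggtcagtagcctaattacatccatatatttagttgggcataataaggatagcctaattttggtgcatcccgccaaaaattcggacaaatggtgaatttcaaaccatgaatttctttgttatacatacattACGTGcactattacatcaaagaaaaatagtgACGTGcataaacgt
FAR5, chr3:16137326-16137575, plus strand: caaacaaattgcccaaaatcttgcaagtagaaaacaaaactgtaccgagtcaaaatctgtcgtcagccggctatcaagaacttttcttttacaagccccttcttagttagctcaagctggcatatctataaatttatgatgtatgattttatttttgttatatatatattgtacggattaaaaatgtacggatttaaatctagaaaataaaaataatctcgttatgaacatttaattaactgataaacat
CYP86A1, chr5:23768112-23768361, minus strand: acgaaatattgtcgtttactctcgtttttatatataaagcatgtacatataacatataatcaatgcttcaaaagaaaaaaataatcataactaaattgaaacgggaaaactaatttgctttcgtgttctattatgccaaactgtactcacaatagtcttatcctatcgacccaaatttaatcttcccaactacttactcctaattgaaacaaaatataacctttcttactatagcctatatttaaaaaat
MYB41, chr4:13969526-13969775, minus strand: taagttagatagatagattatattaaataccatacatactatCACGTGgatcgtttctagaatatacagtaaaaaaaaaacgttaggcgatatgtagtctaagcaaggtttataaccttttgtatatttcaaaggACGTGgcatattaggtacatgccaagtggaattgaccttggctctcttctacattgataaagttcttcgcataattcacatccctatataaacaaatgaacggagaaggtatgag
GPAT5 holds ACGTG at 45 to 41 and at 14 to 10 bases before its start. MYB41 holds it at 115 to 111 bases, and its run CACGTG gives 2 overlapping matches, 1 on each strand. No match lay in the windows of CYP86A1 and FAR5. Over the set, ACGTG was found in 5 of 10 windows, those of GPAT5, GPAT7, FAR1, FAR4 and MYB41, against 22.9% of the 27443 windows of this length before protein-coding genes. AC elements, which MYB factors are known to bind in phenylpropanoid promoters, were searched on both strands: ACCTACC as the first form, ACCAACC as the other common form, and ACCTAAC as the last. At least 1 of them was found in 2 of 10 windows, GPAT7 and ASFT, against 6.1% of all. A match is a run of letters and was not tested for binding.

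None of the 10 genes passed the test between genotypes. The test was limma on log2(FPKM + 1) over all 16 libraries, 2-sided, and a gene was called at a Benjamini-Hochberg adjusted p under 0.05 over the 19239 genes tested. In double against WT 0 of 10 were called, where 0.156% of all genes were. With unadjusted p under 0.05 there were 2 of 10, CYP86A1 and MYB41, against 3.82% of all genes, and with the replicate number as a block 3 of 10, GPAT7 added, against 8.81%. With that block 0.541% of all genes and 0 of 10 members were called. The smallest adjusted p of any member, in any comparison and under any of 27 alternative settings, was 0.156, for MYB41 with the block. In double against WT the FPKM of each member overlapped, where 2.13% of all genes did not overlap. The members also overlapped in the other comparisons between 2 genotypes, for which the share over all genes was not computed. The median log2 change of the members in double against WT was -0.18, with 3 above and 7 below 0, beside 0.031 for all genes.

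**Figure D1:**
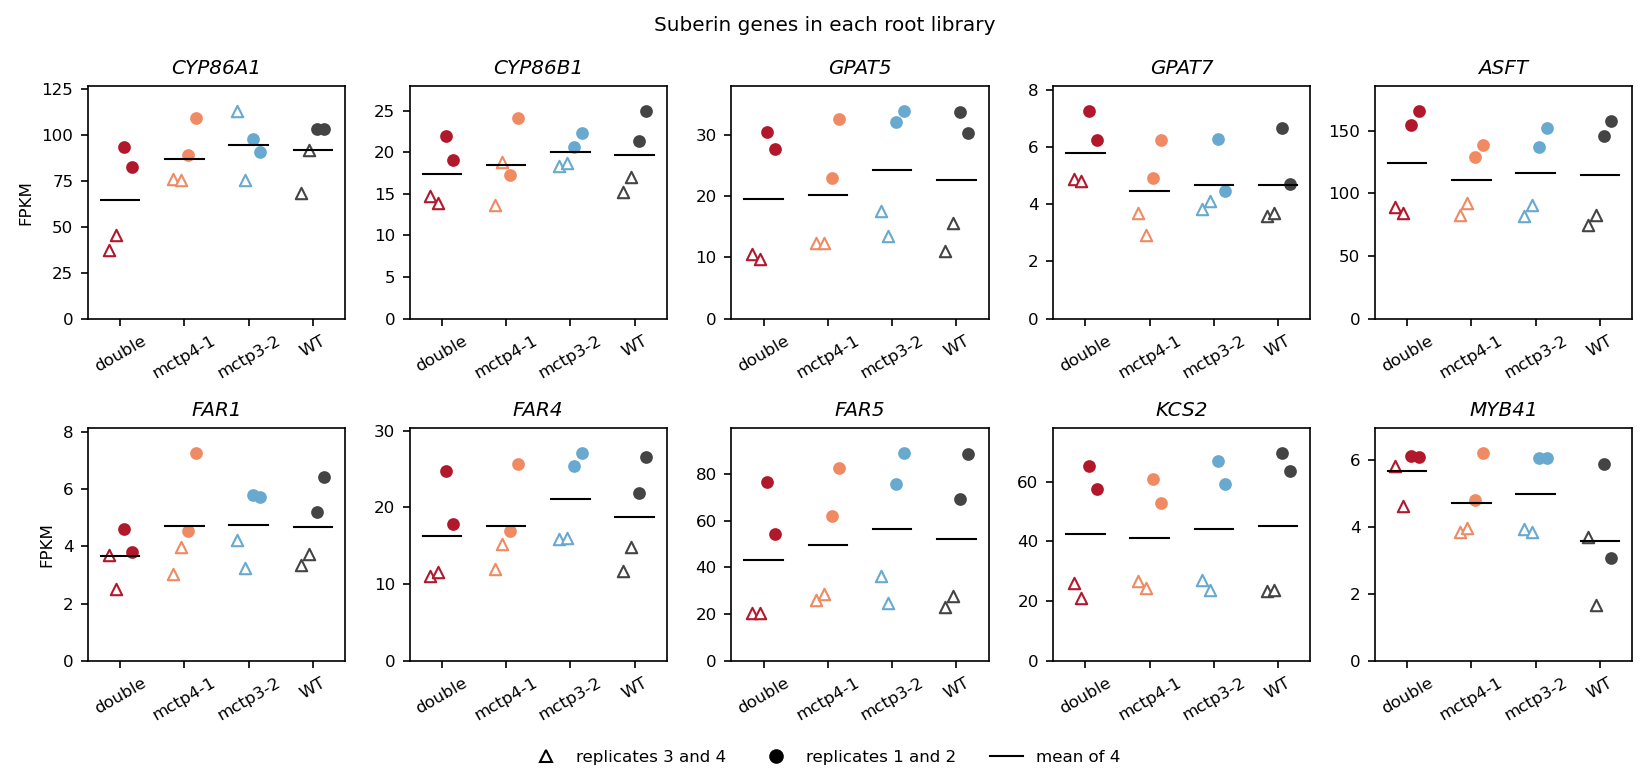
FPKM of each suberin gene (vertical axis, from 0, 1 panel per gene) in the 4 libraries of double, mctp4-1, mctp3-2 and WT; triangles are replicates 3 and 4, filled circles replicates 1 and 2, and bars the mean of 4. Genotypes overlap in every panel, while triangles lie below circles throughout for GPAT5, ASFT, FAR4, FAR5 and KCS2.

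MYB41 (AT4G28110, chr4:13968029-13969525, minus strand) encodes a MYB transcription factor that can switch on aliphatic suberin synthesis when overexpressed. It was at 6.11, 6.08, 5.8 and 4.6 FPKM in double replicates 1 to 4, at 4.79, 6.20, 3.84 and 3.96 in mctp4-1, at 6.05, 6.05, 3.93 and 3.85 in mctp3-2, and at 5.88, 3.06, 3.70 and 1.66 in WT. WT replicates 2 and 4 were the lowest of all libraries, and WT replicate 1 lay within the range of double. The log2 change was 0.61 ± 0.23 (SE) in double against WT, with a 95% interval of 0.12 to 1.11 and an adjusted p of 1 (limma; unadjusted 0.019). With the replicate block the interval was 0.26 to 0.97 (limma adjusted p 0.156). Paired by replicate number, double was above WT in 4 of 4 pairs, by 0.05, 0.80, 0.53 and 1.07. Against the same WT libraries the log2 change was 0.38 ± 0.23 in mctp4-1 and 0.44 ± 0.23 in mctp3-2, with most of the difference at numbers 2 and 4. MYB41 thus had the 4 WT values spread more widely (SD 1.75 FPKM) than the 4 double values (SD 0.709 FPKM).

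Of 15 other known suberin regulators 14 passed the low-value filter, and 0 of them were called in double against WT, where 0.156% of all genes were. With unadjusted p under 0.05 there were 3 of 14, MYB9, MYB93 and MYB70, beside 3.82% of all genes. MYB9 and MYB93, factors known to act on suberin genes, had log2 changes of -0.30 and -0.44 in double against WT (limma, adjusted p 1 each). MYB70 was at 0.24 (adjusted p 1). The median of the 14 was 0.05, with 8 above and 6 below 0.

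KCS2 (AT1G04220, chr1:1119699-1122786, minus strand) is a ketoacyl-CoA synthase that lengthens fatty acids for suberin together with KCS20. It was at 65.3, 57.7, 26.1 and 21.0 FPKM in double, 61.0, 52.8, 26.8 and 24.4 in mctp4-1, 67.1, 59.3, 27.0 and 23.7 in mctp3-2, and 69.7, 63.5, 23.5 and 23.7 in WT. Genotypes lie close together at each replicate number, while every library of replicates 3 and 4 is below every library of replicates 1 and 2. Its log2 change in double against WT was -0.06 ± 0.49, with a 95% interval of -1.12 to 0.99, and of -0.22 to 0.10 with the replicate block. The noncoding gene AT1G04247 on the opposite strand shares 58.4% of the 50-base windows of the KCS2 transcript. The counting's use of strand is not given in the sources used here, so KCS2 values may hold reads of that locus.

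CYP86A1 (AT5G58860, chr5:23765791-23768111, minus strand) is the cytochrome P450 that hydroxylates the ends of fatty acids in root suberin. It was at 93.5, 82.4, 37.2 and 45.3 FPKM in double, 88.8, 109, 75.7 and 75.2 in mctp4-1, 97.6, 90.9, 113 and 75.2 in mctp3-2, and 103, 103, 68.3 and 91.7 in WT. Double replicates 3 and 4 were below all other libraries, while double replicates 1 and 2 lay inside the range of the other genotypes. The log2 change in double against WT was -0.58 ± 0.25, with a 95% interval of -1.11 to -0.05, an unadjusted p of 0.034 and an adjusted p of 1 (limma). With the replicate block the interval was -1.03 to -0.13 (limma adjusted p 0.383). Double was below WT at 4 of 4 replicate numbers, by a mean log2 difference of -0.93 in replicates 3 and 4 and of -0.23 in replicates 1 and 2. Against mctp4-1 the log2 change of double was -0.51 ± 0.25 and against mctp3-2 -0.62 ± 0.25. The interaction, which sets double against both single-mutant changes added together, was -0.55 ± 0.35.

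CYP86B1 (AT5G23190, chr5:7803141-7805968, minus strand), a related P450 that acts on very long chains, was at 22, 19.1, 14.7 and 13.9 FPKM in double, 17.3, 24.2, 13.7 and 18.8 in mctp4-1, 20.7, 22.4, 18.4 and 18.7 in mctp3-2, and 21.4, 25, 15.2 and 17 in WT. Its log2 change in double against WT was -0.17 ± 0.18, with a 95% interval of -0.55 to 0.22, and of -0.40 to 0.07 with the replicate block.

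GPAT5 (AT3G11430, chr3:3595694-3597952, plus strand) is the acyltransferase that joins fatty acids to glycerol in root suberin. It was at 30.5, 27.7, 10.5 and 9.70 FPKM in double, 22.9, 32.6, 12.3 and 12.4 in mctp4-1, 32.1, 33.9, 17.5 and 13.5 in mctp3-2, and 33.8, 30.3, 11.1 and 15.6 in WT. Replicates 3 and 4 were below replicates 1 and 2 in every genotype. The log2 change was -0.24 ± 0.46 in double against WT, and double was below WT at 4 of 4 numbers. GPAT7 (AT5G06090, chr5:1835047-1837037, plus strand), a close relative known for induction by wounding, was at 7.27, 6.26, 4.89 and 4.83 FPKM in double, 4.93, 6.26, 3.68 and 2.92 in mctp4-1, 6.27, 4.45, 3.85 and 4.13 in mctp3-2, and 6.67, 4.70, 3.60 and 3.69 in WT. Double was above WT at 4 of 4 numbers, by 0.11 to 0.36, and the log2 change was 0.28 ± 0.21 (limma, adjusted p 1; 0.517 with the replicate block). The log2 changes of GPAT5 and GPAT7 in double thus lay on opposite sides of 0, and neither gene was called. The 95% interval was -1.23 to 0.74 for GPAT5 and -0.16 to 0.73 for GPAT7. With the block it was -0.52 to 0.03 for GPAT5 and 0.02 to 0.54 for GPAT7. Without double replicate 4 the log2 change of GPAT5 was 0.013.

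The reductases FAR1, FAR4 and FAR5 make the primary fatty alcohols found in root suberin. FAR5 (AT3G44550) was at 76.8, 54.3, 20.5 and 20.5 FPKM in double, 62.3, 82.9, 25.8 and 28.4 in mctp4-1, 75.7, 89.2, 36.3 and 24.9 in mctp3-2, and 69.6, 88.6, 23.0 and 27.7 in WT. It had the widest gap of the set between replicate numbers, and its 95% interval in double against WT was wide, -1.51 to 0.95 around -0.28. With the replicate block that interval was -0.59 to 0.02. FAR4 (AT3G44540) was at 24.8, 17.8, 11 and 11.5 FPKM in double, 16.9, 25.7, 12 and 15.2 in mctp4-1, 25.4, 27.1, 15.9 and 16.0 in mctp3-2, and 21.9, 26.6, 11.7 and 14.8 in WT, with a log2 change of -0.20 ± 0.30 in double. FAR1 (AT5G22500, chr5:7470328-7474133, plus strand) was at 4.6, 3.81, 3.70 and 2.52 FPKM in double, 4.55, 7.28, 3.05 and 3.99 in mctp4-1, 5.81, 5.72, 4.22 and 3.23 in mctp3-2, and 5.21, 6.43, 3.34 and 3.72 in WT, with a log2 change of -0.27 ± 0.23. For all 3 reductases double was the lower of the pair with WT at 3 of 4 numbers, which were 2, 3 and 4 for FAR4 and FAR5 and 1, 2 and 4 for FAR1. With the block the 95% interval in double against WT was -0.47 to 0.06 for FAR4 and -0.58 to 0.03 for FAR1. Genes on the opposite strand share 5.0% of the 50-base windows of FAR4, 2.7% of those of FAR1 and 0.8% of those of ASFT.

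ASFT (AT5G41040, chr5:16431304-16433305, plus strand) is the feruloyltransferase that adds ferulate to the aliphatic parts. It was at 155, 166, 89.3 and 84.7 FPKM in double, 129, 139, 82.8 and 92.0 in mctp4-1, 137, 152, 81.9 and 90.7 in mctp3-2, and 146, 158, 74.4 and 82.4 in WT. Double was slightly above WT at 4 of 4 numbers, and the log2 change was 0.12 ± 0.30, with a 95% interval of -0.53 to 0.76 and of -0.04 to 0.27 with the block.

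**Figure D2:**
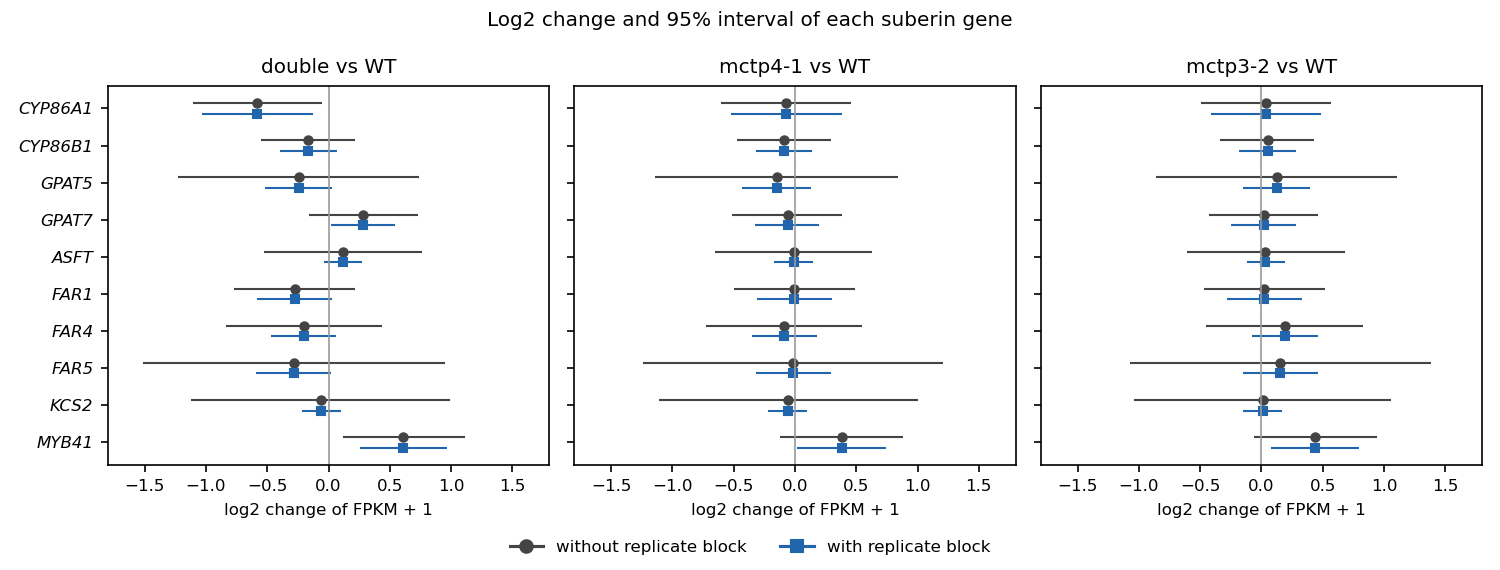
Log2 change of FPKM + 1 (horizontal axis) with its 95% interval from limma for each suberin gene in double, mctp4-1 and mctp3-2 against WT, without (circles) and with (squares) the replicate number as a block. In double without the block the intervals of CYP86A1, -1.11 to -0.05, and MYB41, 0.12 to 1.11, lie off 0, and neither gene was called over all genes.

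**Figure D3:**
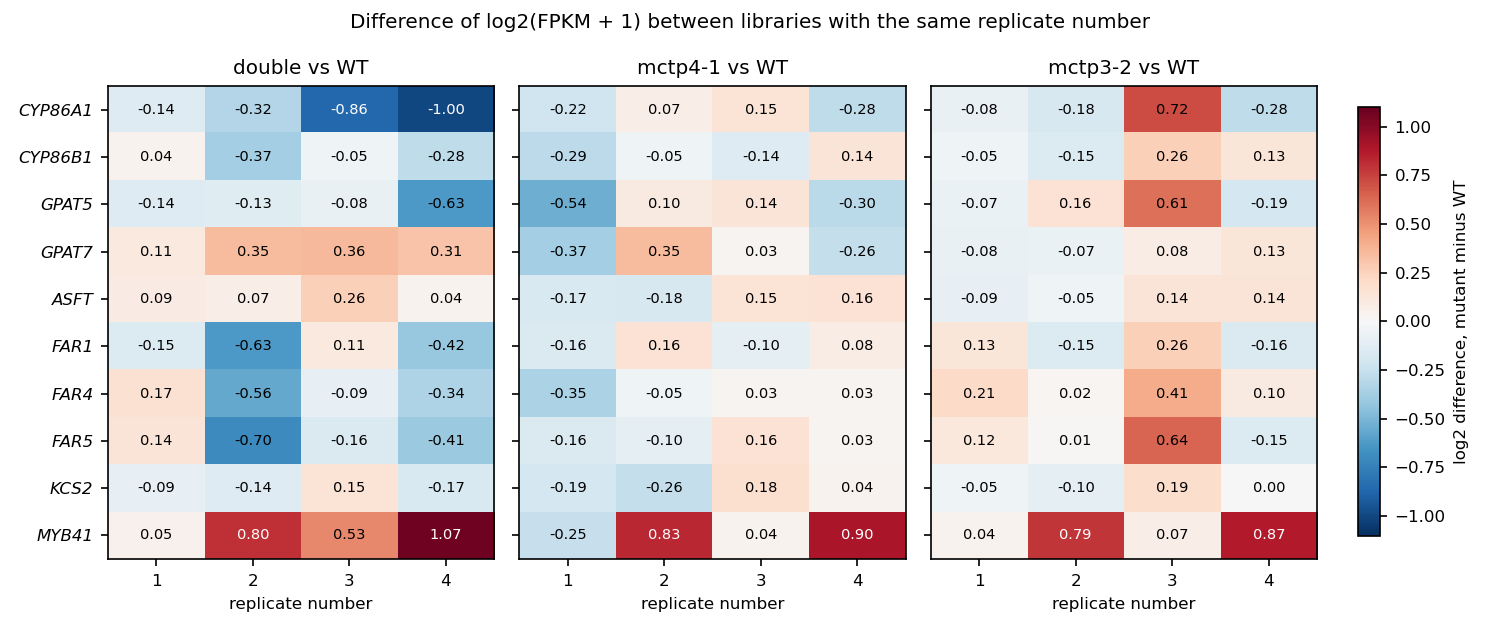
Difference of log2(FPKM + 1), mutant minus WT, between libraries with the same replicate number (horizontal axis) for each suberin gene in double, mctp4-1 and mctp3-2. In double CYP86A1 is at -0.14 and -0.32 at numbers 1 and 2 and at -0.86 or lower at 3 and 4, and in all 3 mutants MYB41 is highest above WT at numbers 2 and 4.

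The single mutants gave no call either, with smaller differences. In mctp4-1 against WT 0 of 10 members were called, where 0.026% of all genes were, and the median log2 change was -0.06, with 9 below 0. In mctp3-2 against WT 0 of 10 were called, where 0.0312% of all genes were. All 10 members were above 0 there, at a median of 0.04, but the median of all genes was 0.049, and 6 of the 10 were below 0 under median of ratios scaling. Besides MYB41 the largest log2 changes were -0.15 ± 0.46 for GPAT5 in mctp4-1 and 0.19 ± 0.30 for FAR4 in mctp3-2. The 3 comparisons share the WT libraries.

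Set against the single mutants, double again gave 0 of 10 calls. Against mctp4-1, where 0.0624% of all genes were called, the median log2 change was -0.09; values at or past 0.25 were those of CYP86A1, GPAT7 at 0.35 ± 0.21, FAR1 at -0.27 ± 0.23 and FAR5 at -0.27 ± 0.57. Against mctp3-2, where 0.0572% were called, the median was -0.25; values at or past 0.25 besides CYP86A1 were GPAT5 at -0.37 ± 0.46, GPAT7 at 0.27 ± 0.21, FAR1 at -0.30 ± 0.23, FAR4 at -0.39 ± 0.30 and FAR5 at -0.44 ± 0.57. With the replicate block, 5 of 10 members, CYP86A1, GPAT5, GPAT7, FAR4 and FAR5, had an unadjusted p under 0.05 in that comparison, beside 6.64% of all genes, and their adjusted p were 0.381 to 0.746 (limma). In the interaction, double minus both single mutants plus WT, 0.0364% of all genes and 0 of 10 members were called, and the median was -0.21; GPAT7 was at 0.33 ± 0.30, FAR1 at -0.29 ± 0.33, FAR4 at -0.31 ± 0.42 and FAR5 at -0.42 ± 0.81. Without the block, 1 of 10 members had an unadjusted p under 0.05 in double against mctp3-2, beside 2.92% of all genes. There were 0 of 10 in mctp4-1 against WT (1.26% of all genes), mctp3-2 against WT (1.85%), double against mctp4-1 (2.6%) and the interaction (1.93%). With the block there was 1 of 10 in mctp4-1 against WT (2.91% of all genes) and in mctp3-2 against WT (6.33%), MYB41 in both. There were 2 of 10 in double against mctp4-1 (6.32%), CYP86A1 and GPAT7, and 0 in the interaction (4.81%).

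Most of the suberin genes differed more by replicate number than by genotype. In CYP86A1 and MYB41 the log2 change in double against WT, -0.58 and 0.61, was larger in size than the log2 difference by replicate number, -0.47 and -0.43. In 5 of 10 members, GPAT5, ASFT, FAR4, FAR5 and KCS2, all 8 libraries of replicates 3 and 4 were below all 8 of replicates 1 and 2, whereas 4.27% of all genes tested behaved so. FAR5 averaged 25.9 ± 5.14 FPKM in replicates 3 and 4 and 74.9 ± 12.4 in replicates 1 and 2, a ratio of 0.35. KCS2 was at 24.5 ± 2.02 FPKM in replicates 3 and 4 and 62.0 ± 5.48 in 1 and 2, a ratio of 0.40. GPAT5 was at 12.8 ± 2.63 FPKM in replicates 3 and 4 and 30.5 ± 3.69 in 1 and 2 (0.42). ASFT had a ratio of 0.57 and FAR4 of 0.58. The ratio of FAR5 was 0.31 in double, 0.37 in mctp4-1, 0.37 in mctp3-2 and 0.32 in WT, so it was similar in the 4 genotypes. For the other 5 members the ratio was 0.64 for FAR1, 0.67 for GPAT7, 0.71 for MYB41 and 0.76 for both CYP86A1 and CYP86B1, with some overlap of libraries. CYP86A1 was the one member whose ratio differed widely between genotypes, at 0.47 in double, 0.76 in mctp4-1, 1.00 in mctp3-2 and 0.77 in WT, a difference that was not tested.

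Summed over the set, the 8 libraries of replicates 3 and 4 held 219 to 322 FPKM and the 8 of replicates 1 and 2 held 413 to 509. The median log2 difference of the 10 members was -0.63, beside 0.05 for all genes, whose 5th and 95th percentiles were -0.56 and 0.48. The labels do not say what the numbers stand for and no test was made of this split, which was taken up with the values known.

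Some of the genes that act beside the members in suberin had the same order. Of 16 other suberin enzymes, transporters and polymerising enzymes, 5 had replicates 3 and 4 wholly below 1 and 2, beside 4.27% of all genes tested. These were KCS20, KCS1, ABCG6, AT2G48130 and AT1G74460. The transporter gene ABCG6 was at 32.8 FPKM in replicates 3 and 4 and at 77.0 in 1 and 2. AT2G48130, a lipid-transfer protein gene in the RefSeq annotation, was at 167 FPKM in replicates 3 and 4 and at 455 in 1 and 2. AT1G74460, annotated as a GDSL-like lipase, was at 65.7 FPKM in replicates 3 and 4 and at 124 in 1 and 2. The median log2 difference of the 16 was -0.51. The opposite order was seen in 1 of the 16, a share near the 7.42% of all genes tested that were wholly higher in replicates 3 and 4. Among 8 tested relatives of the member families the median was -0.58, and GPAT4, an acyltransferase known from cutin, was at 36.4 FPKM in replicates 3 and 4 and at 79.8 in 1 and 2. Of 14 other suberin regulators, MYB107, NAC038 and NAC058 were wholly lower, beside 4.27% of all genes tested, and 0 were wholly higher. NAC058 was at 9.27 FPKM in replicates 3 and 4 and at 19.7 in 1 and 2. The median of the 14 was -0.11. MYB39, MYB74, MYB68, MYB92, MYB9 and WRKY9 were higher in replicates 3 and 4, by log2 differences of 0.13 to 0.46, and the rest were lower.

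Genes listed for the endodermis and Casparian strip centred near 0 in the same difference. In 1 of 13, AT4G34600, replicates 3 and 4 were wholly below 1 and 2, beside 4.27% of all genes tested. The median log2 difference was -0.03. Whether the list reports the older endodermal cells that hold suberin was not tested. CASP1, a scaffold protein of the Casparian strip, was at 219 FPKM in replicates 3 and 4 and at 238 in 1 and 2, and MYB36, the regulator of that strip, was at 16.3 FPKM in replicates 3 and 4 and at 16.5 in 1 and 2. Green tissue markers had a median of -0.54, with summed levels of 131 to 352 FPKM in replicates 3 and 4 and 175 to 503 in 1 and 2 and 0 of 7 separated. Of 7 abscisic acid markers, KIN1 and NCED3 were wholly lower, beside 4.27% of all genes tested, and the median log2 difference of the 7 was -0.15. ABI1 was at -0.04, ABI2 at -0.06, HAB1 at -0.15 and HAI1 at -0.83 in that difference. KIN1 was at 61.4 FPKM in replicates 3 and 4 and at 231 in 1 and 2. RD29A was at 22.3 FPKM in replicates 3 and 4 and at 18.2 in 1 and 2. Dividing cell markers had a median of 0.26, with 3 of 7 wholly higher in replicates 3 and 4, beside 7.42% of all genes, and xylem markers a median of 0.03. The part of green tissue, abscisic acid or cell division in the gap of the suberin genes was not tested.

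**Figure D4:**
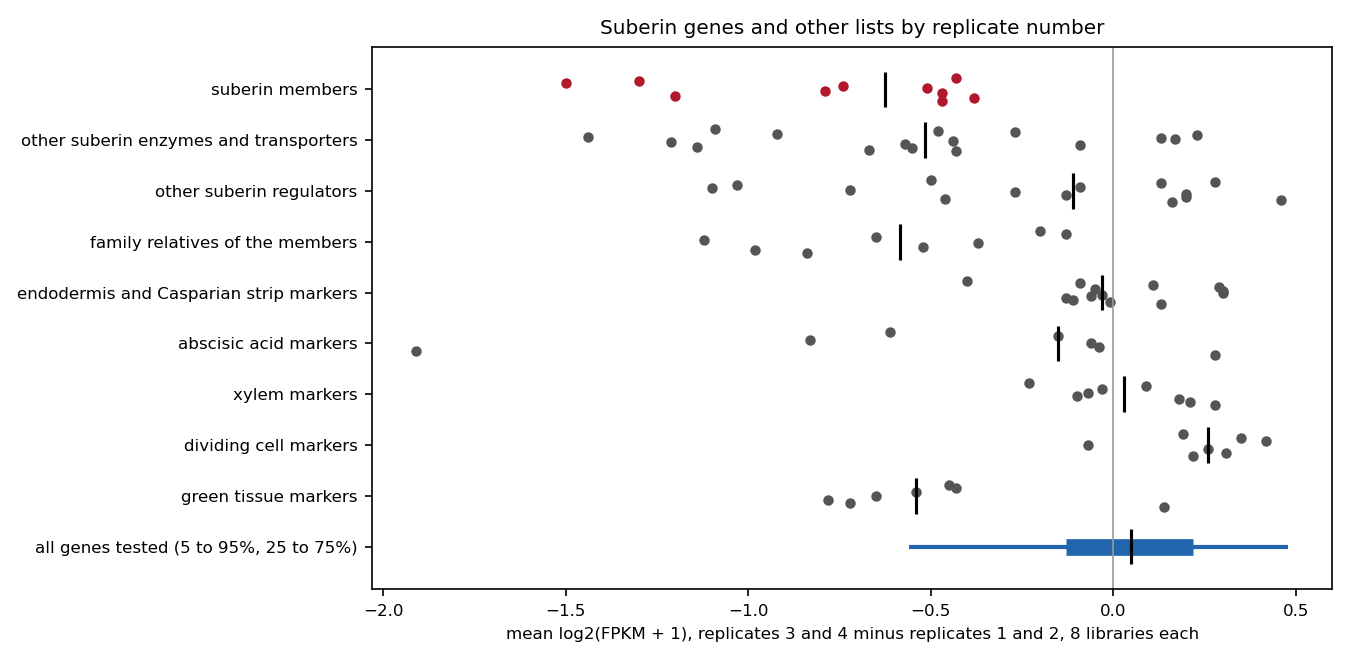
Mean log2(FPKM + 1) of replicates 3 and 4 minus that of replicates 1 and 2 (horizontal axis, 8 libraries each), 1 point per gene that passed the filter, with suberin members on the top row, other lists beneath and black bars at medians. The bottom bar spans the 5th to 95th and the 25th to 75th percentiles of all genes. Members lie at -1.50 to -0.38, and genes listed for the endodermis and Casparian strip centre on -0.03.

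The suberin genes varied together over the 16 libraries, and less so within replicates 1 and 2 and within replicates 3 and 4. After the genotype means were taken out, Pearson's r over the 16 libraries was 0.27 to 0.98 for the 45 pairs, with a median of 0.81, and was highest for GPAT5 with FAR5. MYB41 was the least alike, at 0.27 to 0.74 with the other 9. When the means of replicates 1 and 2 and of replicates 3 and 4 within each genotype were also taken out, r was -0.56 to 0.91, with a median of 0.20, and the highest pair was CYP86B1 with FAR4. Each genotype gives this second r only 1 difference within replicates 1 and 2 and 1 within 3 and 4, so fewer independent values lie behind it. Both sets of r are descriptions of libraries that share their replicate numbers.

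**Figure D5:**
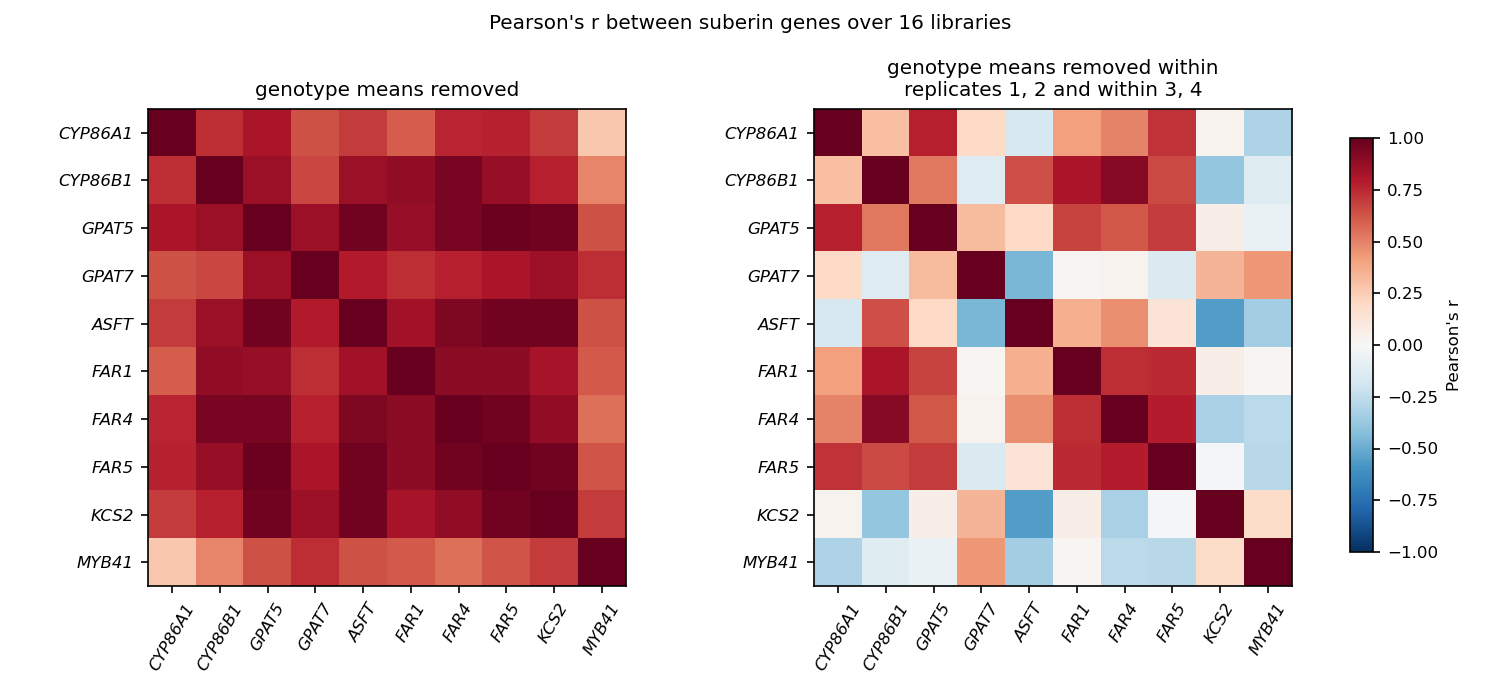
Pearson's r (colour, -1 to 1) between suberin genes over 16 libraries, with genotype means removed on the left. On the right the means within replicates 1 and 2 and within 3 and 4 are also removed, which leaves only the difference between the 2 libraries of each such pair. The median of the 45 pairs is 0.81 on the left and 0.20 on the right.

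The 10 genes of the whole matrix most like the set were found by Pearson's r with the mean z-score of the members over the 16 libraries, genotype means removed. They were at r = 0.978 to 0.989. All 10 averaged lower in replicates 3 and 4 than in 1 and 2, and these r include that gap. For these genes r within replicates 1 and 2 and within 3 and 4 was not computed. ABCG6 and the lipase gene AT1G74460, both from the list of other suberin genes, were among them, as was a further GDSL-like lipase gene, AT3G50400. CCR2 is annotated as a cinnamoyl-CoA reductase and AT1G68850 as a member of the peroxidase superfamily. CYP79B2 and SOT16, enzymes of indole glucosinolate synthesis, were at r = 0.989 and 0.982, and GolS1, a galactinol synthase, at 0.981. The transporter gene AT3G21670 and the aspartyl protease gene AT5G10770 complete the 10. CYP79B2 was at 69.7 FPKM in replicates 3 and 4 and 147 in 1 and 2, and GolS1 at 4.29 in replicates 3 and 4 and 21.8 in 1 and 2.

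Between genotypes the other suberin genes gave the same count of calls as the members. Of 16 other suberin enzymes and transporters 0 were called in double against WT, where 0.156% of all genes were. Their median log2 change was -0.27, with 3 above and 13 below 0. Unadjusted p was under 0.05 for 1 of 16, ABCG20, beside 3.82% of all genes. The replicate block again gave 0 calls among the 16. Unadjusted p was then under 0.05 for FACT, AT1G74460, ABCG20, AT2G23540, AT5G37690, LACS2, ABCG2 and ABCG11, beside 8.81% of all genes. Each of these was lower in double (limma, unadjusted p 0.00179 to 0.0251), and the rest of the 16 were not under 0.05. FACT, which transfers caffeate to fatty alcohols, was at 20.9 ± 12 FPKM in double and 34.8 ± 17.8 in WT (log2 change -0.73 ± 0.46, limma adjusted p 1). The interval of FACT with the replicate block was -1.13 to -0.32 (limma adjusted p 0.146). ABCG20, a suberin transporter gene, was at 16.1 ± 3.20 FPKM in double and 20.6 ± 1.74 in WT (-0.36 ± 0.13, adjusted p 0.916). Of the 8 tested family relatives 0 were called, at a median of -0.17, and of the 7 tested abscisic acid markers 0 were called, at a median of 0.15. Of 13 genes listed for the endodermis and Casparian strip 0 were called, at a median of -0.01. With unadjusted p under 0.05 there were 4 of 13, beside 3.82% of all genes. CASP5, SCR and MYB36 were higher in double and AT2G16385 was lower. CASP5 was at 0.79 ± 0.24 (limma adjusted p 0.602), SCR at 0.29 ± 0.09 (0.691) and MYB36 at 0.27 ± 0.09 (0.738). Of 8 xylem markers 2 were called as higher in double, beside 0.156% of all genes called in either direction. IRX6 was at 17.7 ± 0.949 FPKM in double and 11.8 ± 0.509 in WT (limma adjusted p 0.00894). XCP1 was at 169 ± 10.4 FPKM in double and 121 ± 8.35 in WT (adjusted p 0.0373). With the replicate block IRX9 was called as well (adjusted p 0.0476), beside 0.541% of all genes. IRX6 was called with any of the 16 libraries left out, and XCP1 in 6 of these 16 fits; the call of XCP1 was lost without double replicate 1, 3 or 4, mctp4-1 replicate 1 or 2, mctp3-2 replicate 1 or 2, or WT replicate 1, 3 or 4, at adjusted p up to 0.144. Over all 27 alternatives IRX6 was called in 24 and XCP1 in 12. IRX6 lost its call when only double and WT were fitted (adjusted p 0.137), in replicates 1 and 2 alone (0.303) and in 3 and 4 alone (0.214), and the highest adjusted p of XCP1 was 0.528. Over the 8 xylem markers the summed level was 393 to 477 FPKM in double and 313 to 338 in WT. Green tissue markers, at a median of -0.27 and summed levels of 131 to 503 FPKM in double and 200 to 352 in WT, and dividing cell markers, at a median of 0.03, gave 0 calls. In mctp4-1 and in mctp3-2 against WT 0 genes of the 8 other lists were called, where 0.026% and 0.0312% of all genes were. The part of these other tissues in the values of the suberin genes was not tested.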

How the data were processed

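RNA-seq libraries of polyadenylated RNA came from 16 samples, per the labels' protocols with Trizol extraction and a stranded Illumina kit. HISAT2, Cufflinks and the TAIR10 build are named in the submitters' processing notes, without versions or counting settings. The authors deposited FPKM, already scaled by transcript length and library size. Whole reads could not be recovered (27.2 to 48.6% of low genes on steps of whole fragments within 0.05 log2), so depth is unknown and no count test was run.

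Genes with at least 1 FPKM in at least 4 libraries, 19239, were fitted with limma 3.58.1 in R 4.3.3 on log2(FPKM + 1), a scale that understates changes of low genes, with 1 mean per genotype, trend and robust moderation, and adjusted p under 0.05 called. Alternatives were other pseudocounts (0.1, 5), filters, scalings, fits, replicate subsets and 1 library left out. Same-numbered libraries of different genotypes correlated at 0.203 to 0.556 in all 24 pairs, above the limit of 0.1, so numbers were taken to pair samples; this comes from the values, and libraries with other numbers within 1 and 2 or within 3 and 4 correlated at 0.185 to 0.524. Members, the 8 other lists and tests were chosen with earlier results of these data known. Named are all members, MCTP3 and MCTP4, called genes and up to 4 of each list with the smallest adjusted p in double against WT, and the 10 genes most alike; other list genes were named after their values were seen. Positions and promoters are from TAIR10.1, and no coordinates were converted. All 102 list genes matched that annotation.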

Additional observations from a re-analysis of the deposited data

How the results depend on the processing

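No member was called in any of the 6 comparisons under 27 alternatives, 16 of which leave out 1 library each; limma's lowest adjusted p was 0.156. With the replicate block, the pairing changed no call of a member, while calls over all genes in double against WT went up to 104, against 30 without it. Over the alternatives that count was 14 to 104, in mctp4-1 against WT 2 to 6, in mctp3-2 against WT 3 to 11, in double against mctp4-1 7 to 60, in double against mctp3-2 7 to 53 and in the interaction 2 to 10. The members' median in double against WT was -0.35 to 0.01 with 1 library left out. CYP86A1 in double kept its side of WT, at -0.79 to -0.36 with 1 library left out, -0.93 in replicates 3 and 4 alone and -0.23 in 1 and 2 alone; MYB41 did so at 0.38 to 0.84. Of 1620 alternative values of members, 144 changed sign, none of them from a called value, and the cause was not tested. With 1 library left out, log2 changes that changed sign in double against WT ranged over ASFT -0.066 to 0.29, KCS2 -0.32 to 0.21, GPAT5 -0.52 to 0.013 and FAR5 -0.63 to 0.041. In mctp4-1 against WT they were CYP86B1 -0.22 to 0.041, GPAT5 -0.43 to 0.077, ASFT -0.19 to 0.17, FAR1 -0.20 to 0.14, FAR4 -0.28 to 0.10, FAR5 -0.32 to 0.31, KCS2 -0.30 to 0.21 and GPAT7 -0.22 to 0.092; in mctp3-2 against WT GPAT5 -0.15 to 0.36, GPAT7 -0.11 to 0.17, ASFT -0.15 to 0.21, FAR1 -0.094 to 0.16, FAR5 -0.15 to 0.48, KCS2 -0.23 to 0.28, CYP86B1 -0.062 to 0.16, CYP86A1 -0.091 to 0.14 and FAR4 -0.0028 to 0.37. In double against mctp4-1 they were ASFT -0.036 to 0.29, GPAT5 -0.36 to 0.17, FAR4 -0.34 to 0.076, FAR5 -0.62 to 0.03, KCS2 -0.26 to 0.27 and CYP86B1 -0.21 to 0.053; in double against mctp3-2 ASFT -0.08 to 0.24 and KCS2 -0.33 to 0.20; and in the interaction ASFT -0.083 to 0.28, GPAT5 -0.48 to 0.059, KCS2 -0.28 to 0.26, CYP86B1 -0.25 to 0.0076 and MYB41 -0.43 to 0.026. In replicates 3 and 4 alone mctp4-1 against WT gave ASFT 0.16, FAR4 0.03, FAR5 0.10 and KCS2 0.11. For mctp3-2 against WT, median of ratios scaling gave CYP86A1 -0.013, CYP86B1 -0.0087, GPAT7 -0.033, ASFT -0.023, FAR1 -0.025 and KCS2 -0.046, quantile normalization GPAT7 -0.046, FAR1 -0.037 and KCS2 -0.0038, and replicates 1 and 2 alone CYP86A1 -0.13, CYP86B1 -0.10, GPAT7 -0.071, ASFT -0.07, FAR1 -0.0061 and KCS2 -0.077. Double against mctp4-1 gave CYP86B1 0.00034, GPAT5 0.084, FAR4 0.0081 and KCS2 0.11 in replicates 1 and 2 alone and ASFT -0.005 in 3 and 4 alone. The interaction gave KCS2 0.031 under median of ratios scaling, KCS2 0.00025 under quantile normalization, CYP86B1 0.10, GPAT5 0.041 and KCS2 0.19 in replicates 1 and 2 alone and ASFT -0.14 in 3 and 4 alone. Unknown depth gives no counting error for the low genes MYB41, GPAT7 and FAR1.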
